A study of Mus musculus with 6 samples.

Results

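The subunits of respiratory complexes II to V are the parts of the mitochondrial electron transport chain, beyond complex I, and of ATP synthase. Here they are the genes of the deposited table whose symbol is Sdha, Sdhb, Sdhc, Sdhd, Cyc1 or Cycs, or begins with Uqcr, Cox4, Cox5, Cox6, Cox7, Cox8, Atp5, mt-Co, mt-Atp or mt-Cytb. This rule found 59 of 18057 genes. They comprised 45 nuclear genes for subunits (4 of complex II, 9 of complex III, Cycs, 14 of complex IV and 17 of complex V), 6 mitochondrially encoded genes and 8 genes named or annotated as pseudogenes.

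Complex II oxidises succinate to fumarate and passes the electrons to ubiquinone. Complex III moves them on to cytochrome c, complex IV hands them to oxygen, and the proton gradient that results drives the rotor of complex V to make ATP. Complex II is encoded in the nucleus alone, whereas complexes III, IV and V combine nuclear subunits with subunits made from the mitochondrial genome. Group 2 innate lymphoid cells (ILC2s) are tissue lymphocytes that secrete IL-5 and IL-13, and mitochondrial respiration is one of the energy sources of activated lymphocytes.

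RNA-seq libraries were made from ILC2s of mouse lung, 3 of genotype Il7rcrePiezo1flx (titled Piezo1 KO, here Piezo1_KO) and 3 of genotype Il7rcre (titled WT). Piezo1 is a mechanically gated cation channel. The Il7r-driven Cre, which both groups carry per the genotype labels, acts in lymphoid cells in general and not in ILC2s alone. All mice had been given 3 intranasal doses of 1 µg IL-33. The isolated cells of both groups then spent 24 h in culture with 10 ng/mL IL-2 and the same concentration of IL-7. The labels state neither age, sex and strain nor whether each replicate is a separate mouse. The p-values therefore describe variation among these 6 libraries, part of which may be technical.

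The libraries held 23549849 to 29733378 estimated counts in Piezo1_KO and 13059046 to 33459904 in WT. Values are CPM, the counts of a gene per unit of library size, with the libraries scaled by TMM, a normalization on the bulk of genes. Piezo1 itself stood at 150.0, 109 and 122 CPM in Piezo1_KO, against 247, 278 and 160.0 CPM in WT, with a log2 fold change of −0.85 ± 0.21 (SE, adjusted p = 0.112, edgeR quasi-likelihood test). The groups did not overlap, though the test missed the threshold of 0.05. Column totals per gene do not show which exons the reads came from. All 13 ILC2 markers looked up were measured, with summed levels of 14222 to 15267 CPM in Piezo1_KO and 12609 to 13374 CPM in WT. One of them passed the test, Icos, a costimulatory receptor, at 234 ± 12.3 CPM in Piezo1_KO and 358 ± 13.1 CPM in WT (SD, n = 3 each, adjusted p = 0.0168, edgeR). At an unadjusted p under 0.05, 7 of the 13 were higher and 3 lower (edgeR), where 6.30% and 6.91% of all tested genes were. The sums follow mainly Il5 and Il2ra, with means of 5159 and 4318 CPM in Piezo1_KO and 4038 and 3469 CPM in WT. Gata3 and Rora, like Icos, were lower in Piezo1_KO with no overlap (log2 fold changes −0.42 and −0.26, adjusted p = 0.0612 and 0.320, edgeR). Thy1, Id2 and Klrg1, like Il5 and Il2ra, were higher with no overlap (1.06, 0.36 and 0.31, adjusted p = 0.0603, 0.214 and 0.213, edgeR).

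Markers of other cells were low beside the 13656 to 17699 CPM that the 59 genes summed to in a library. Those lists hold fewer genes, so this comparison does not give the share of other cells. The erythroid list (3 of 6 genes in the table) summed to 26.7 to 31.3 CPM in Piezo1_KO and 3.70 to 5.25 CPM in WT, and the granulocyte and mast cell list (4 of 7) to 4.02 to 5.39 CPM in Piezo1_KO and 8.24 to 12.4 CPM in WT. T cell markers (3 of 7) summed to 19.1 to 25.6 CPM in Piezo1_KO and 26.8 to 34.9 CPM in WT, and B cell markers (3 of 5) to 22.6 to 27.2 CPM in Piezo1_KO and 17.0 to 19.2 CPM in WT. The sums of these 4 lists did not overlap between the groups, and Hba-a2 was at 0 in all WT libraries. Cd3g, with means of 21.7 CPM in Piezo1_KO and 27.1 CPM in WT, made up most of the T cell sums and overlapped. Cd3e was lower and Cd3d higher in Piezo1_KO without overlap. Cd79b, with means of 23.9 CPM in Piezo1_KO and 17.9 CPM in WT, made up most of the B cell sums, and Cd22 overlapped. Hba-a1 and Hba-a2 passed the test as higher in Piezo1_KO, and Cma1, a mast cell protease, as lower (adjusted p = 0.000383, 0.00531 and 0.0312, edgeR). Both Hba genes encode alpha globin. Hbb-bt, a beta globin gene and the remaining erythroid marker in the table, overlapped at 0.256 ± 0.280 CPM in Piezo1_KO and 0.218 ± 0.141 CPM in WT (SD). The sums overlapped for epithelium (2 of 5 genes, 13.8 to 18.5 CPM in Piezo1_KO and 10.9 to 16.0 CPM in WT), macrophages and dendritic cells (7 of 9, 4.06 to 5.91 CPM in Piezo1_KO and 4.02 to 5.67 CPM in WT), NK cells and ILC1s (2 of 5, 2.05 to 4.84 CPM in Piezo1_KO and 2.70 to 4.68 CPM in WT) and endothelium and fibroblasts (1 of 6, at most 0.342 CPM in any library). Within the NK cell and ILC1 list, Tbx21, the transcription factor T-bet, was at 0 in all Piezo1_KO libraries, against 1.29 ± 0.222 CPM in WT (SD, n = 3), and passed the test (adjusted p = 0.0170, edgeR). Their part in the values that follow was not tested, and in bulk RNA fewer cells of a type and less RNA per cell cannot be told apart.

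Of the 59 genes, 57 passed the filter on low counts and were tested. None passed the adjusted threshold in either direction: 0 were called higher, where 1.00% of the 14149 tested genes were, and 0 lower, where 0.509% were, or 1.51% in either direction (edgeR quasi-likelihood test, Benjamini-Hochberg adjustment). The smallest adjusted p was 0.240, for mt-Co3. At an unadjusted p under 0.05, edgeR had 6 genes higher, against a background of 6.30% of all tested genes, and 0 lower, against 6.91%. These 10.5% of the 57 genes compare with 13.2% of all tested genes in either direction. The count moved with single libraries: it was 27 higher and 0 lower without WT 3, 1 higher and 0 lower without Piezo1_KO 3, and 0 higher and 1 lower without Piezo1_KO 2. It was 18 higher and 0 lower in limma-voom, and 6 higher and 8 lower in a fit that takes each library's trend with transcript length out. The shares of all tested genes under that p were not computed for these other fits, so their counts stand without a background. DESeq2 and limma-voom also called 0 of the genes, where they called 4.22% and 3.10% of all genes.

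The fold changes leaned to the positive side. The log2 fold change was above 0 for 45 of 57 genes, against 53.0% of all tested genes, and the 45 nuclear subunit genes had a median of 0.19, beside 0.018 for all tested genes. Together the nuclear genes summed to 11055, 13516 and 12709 CPM in the Piezo1_KO libraries, against 11126, 10071 and 13209 CPM in the WT libraries. These sums overlapped, with WT 2 lowest, Piezo1_KO 2 highest and WT 3 close behind it. WT 2 was the lowest of the 6 libraries for 31 of the 45 nuclear genes, and without it their median was 0.03. Without WT 3 it was 0.40, and without Piezo1_KO 2 it was 0.12. For 41 of the 57 genes the 95% interval of the fold change lay within a doubling or halving, and for the rest it reached beyond one of these.

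**Figure D1:**
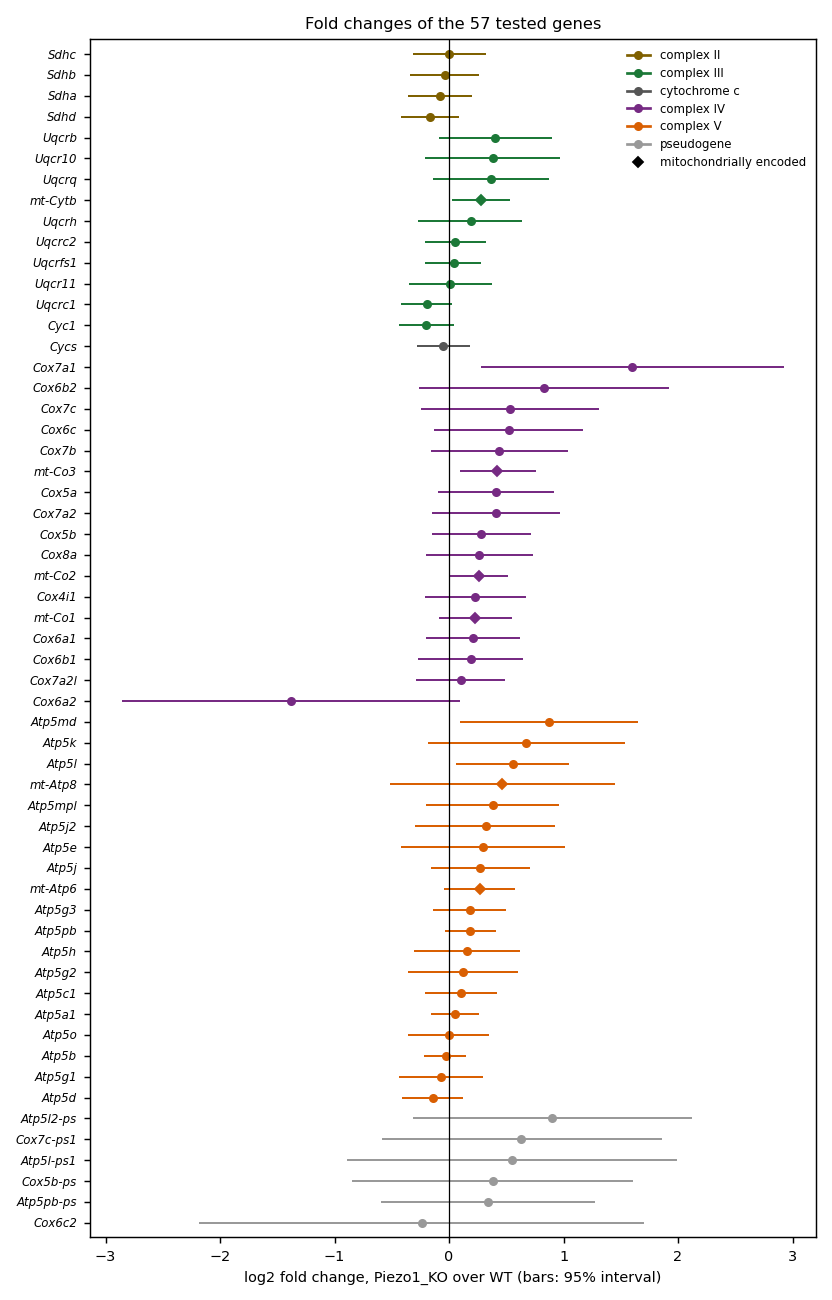
Log2 fold change of Piezo1_KO over WT (horizontal axis) for the 57 tested genes, ordered by complex and then by value. Points are fitted values, bars are 95% intervals and diamonds mark genes of the mitochondrial genome. Of the 57 points, 45 lie right of 0, and the intervals are wide for the low-level isoforms Cox7a1 and Cox6a2 and for the pseudogenes.

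Complex II, which also belongs to the citric acid cycle, had log2 fold changes of −0.17 to 0.00 and a median of −0.06. Sdha, the flavoprotein that oxidises succinate, had 386, 376 and 371 CPM in Piezo1_KO, against 386, 468 and 347 CPM in WT. The Piezo1_KO libraries lay inside the WT range, and the log2 fold change was −0.08 ± 0.12 (SE, adjusted p = 0.816, edgeR). Sdhb, the iron-sulfur subunit, had 296, 367 and 347 CPM in Piezo1_KO, against 308, 331 and 399.5 CPM in WT (−0.04 ± 0.13). The membrane anchors Sdhc and Sdhd differed by 0.00 ± 0.13 and −0.17 ± 0.11 on the log2 scale. All 4 intervals lay within a doubling or halving, and the summed level of the complex was 1005 ± 58.2 CPM in Piezo1_KO and 1061 ± 60.9 CPM in WT (SD, n = 3 each).

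In complex III, 7 of 9 nuclear genes had log2 fold changes above 0, with a median of 0.05, and Uqcrc1 and Cyc1 lay below. Uqcrc1, core protein 1 (chr9:108936633-108949623 in GRCm38), had 377, 389.7 and 352 CPM in Piezo1_KO, against 396, 464 and 419 CPM in WT. It was the single gene of the 57 that lay lower in Piezo1_KO with no overlap, a pattern that 10.5% of all tested genes had (log2 fold change −0.19 ± 0.09, adjusted p = 0.444, edgeR). Cyc1, the cytochrome c1 haem protein, had 198, 216 and 200.4 CPM in Piezo1_KO, against 210, 253 and 245 CPM in WT (−0.20 ± 0.10, adjusted p = 0.447, edgeR). Only Piezo1_KO 2 reached into the WT range there. Uqcrc2, core protein 2, and Uqcrfs1, the Rieske iron-sulfur protein, differed by 0.05 ± 0.11 and 0.04 ± 0.10. The small subunits Uqcrb, Uqcrh, Uqcrq, Uqcr10 and Uqcr11 had log2 fold changes of 0.01 to 0.40. Uqcrq, for example, had 202, 284 and 257 CPM in Piezo1_KO, against 175, 144 and 257 CPM in WT, so that WT 3 stood with the Piezo1_KO libraries and WT 1 and WT 2 below (0.37 ± 0.22, adjusted p = 0.530, edgeR).

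Cycs, the soluble carrier between complexes III and IV, had 488, 569.5 and 543 CPM in Piezo1_KO, against 535, 525 and 595 CPM in WT. The groups overlapped, and the log2 fold change was −0.05 ± 0.10 (adjusted p = 0.887, edgeR).

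Complex IV, cytochrome c oxidase, had the highest median of the nuclear groups, 0.35, with 13 of 14 genes above 0, and the differences between complexes were not tested. Its nuclear subunits surround and regulate the catalytic core made in the mitochondrion. Their summed level was 2305, 3178 and 2951 CPM in Piezo1_KO, against 2205, 1621 and 2934 CPM in WT. WT 3 stood with Piezo1_KO 2 and Piezo1_KO 3, and Piezo1_KO 1 stood close to WT 1. The median was 0.14 without WT 2, 0.56 without WT 3 and 0.23 without Piezo1_KO 2.

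Cox4i1, the ubiquitous form of the largest nuclear subunit, had 322, 451 and 408 CPM in Piezo1_KO, against 322, 262 and 423 CPM in WT (log2 fold change 0.23 ± 0.19, adjusted p = 0.673, edgeR). Cox5a, which sits beside it on the matrix side, had 263, 335 and 326 CPM in Piezo1_KO, against 239.7, 156 and 301 CPM in WT (0.41 ± 0.22, adjusted p = 0.489, edgeR). Cox8a, a small membrane subunit, had 242, 330.4 and 301 CPM in Piezo1_KO, against 235, 181 and 311 CPM in WT (0.26 ± 0.20, adjusted p = 0.637, edgeR). In all 3 genes WT 2 was lowest and WT 3 lay within the Piezo1_KO range. Cox5b, Cox6c, Cox7b and Cox7c had log2 fold changes between 0.28 and 0.53 with the same lowest and highest libraries, WT 2 and Piezo1_KO 2.

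Several complex IV subunits come as a ubiquitous isoform and one typical of heart and skeletal muscle or of testis. Subunits 6a and 6b were almost entirely of the ubiquitous form: by CPM not corrected for length, Cox6a1 made up 99.8% to 99.9% of its pair in Piezo1_KO and 99.4% to 99.7% in WT, and Cox6b1 98.1% to 98.4% in Piezo1_KO and 98.5% to 99.4% in WT. Cox6a1 had a log2 fold change of 0.21 ± 0.17 and Cox6b1 one of 0.19 ± 0.20. The muscle isoform Cox6a2 had 0.423, 0.898 and 0.299 CPM in Piezo1_KO, against 0.956, 0.777 and 2.70 CPM in WT. WT 3 set most of that difference: the log2 fold change was −1.38 ± 0.64 (adjusted p = 0.414, edgeR), and −0.65 without WT 3. The testis isoform Cox6b2 had 4.35, 4.87 and 5.34 CPM in Piezo1_KO, against 2.72, 1.05 and 4.65 CPM in WT (0.83 ± 0.47, adjusted p = 0.515, edgeR).

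Subunit 7a followed the same division. Cox7a2, the ubiquitous form, had 206, 316 and 290 CPM in Piezo1_KO, against 205, 139.8 and 267 CPM in WT (0.41 ± 0.24). Cox7a1, the muscle form (chr7:30184144-30186078), had 0.845, 1.80 and 1.15 CPM in Piezo1_KO, against 0.704, 0.358 and 0.150 CPM in WT. Every Piezo1_KO library was above every WT library, at a level near 1 CPM, and the log2 fold change was 1.60 ± 0.57 (adjusted p = 0.274, edgeR). Cox7a2l, which helps join complexes III and IV into supercomplexes, differed by 0.10 ± 0.17, and its share of the CPM of the 3 genes was 16.3% ± 1.02 in Piezo1_KO and 19.9% ± 2.52 in WT (SD, n = 3 each), with no overlap. Cox7a2 is 659 bases long and Cox7a2l 1076, and shares were not tested.

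**Figure D2:**
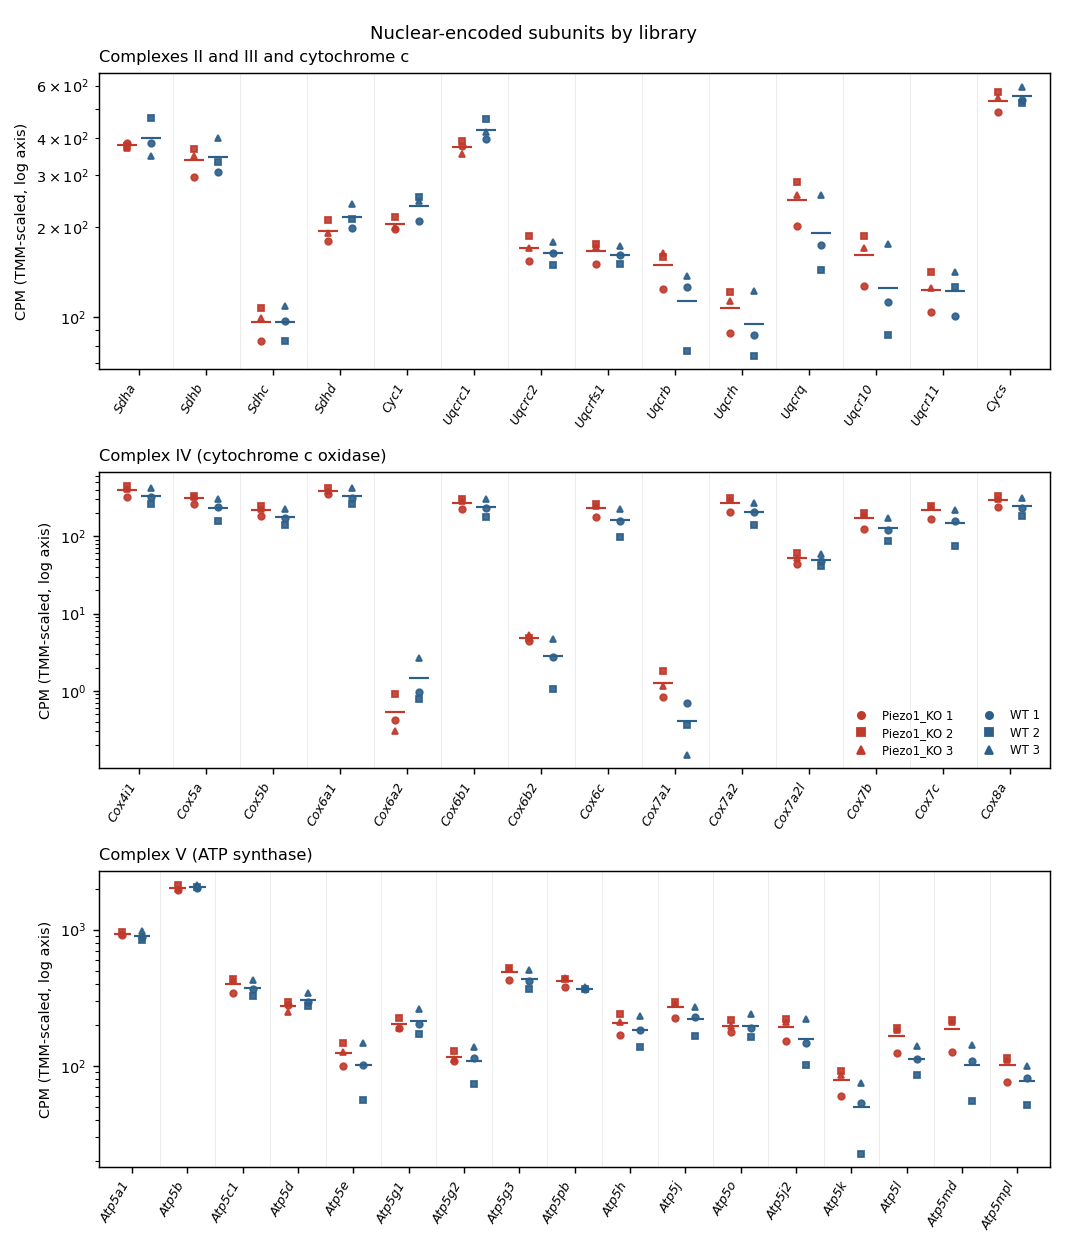
TMM-scaled CPM (log axis) of each nuclear subunit gene in every library, by complex. Red symbols left are Piezo1_KO, blue symbols right are WT, shapes mark the replicate number and lines the group means. WT 2 (blue squares) is the lowest point in 31 of the 45 genes, and Cox6a2, Cox6b2 and Cox7a1 lie far below the other subunits.

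The 17 nuclear genes of complex V, ATP synthase, had 13 log2 fold changes above 0 and a median of 0.18. That median was −0.01 without WT 2 and 0.32 without WT 3. Atp5b, the catalytic beta subunit of the F1 head (chr10:128083273-128090391), had 1950.3, 2113 and 2005 CPM in Piezo1_KO, against 2020.3, 2050.1 and 2146 CPM in WT. The groups overlapped, the log2 fold change was −0.03 ± 0.08 (adjusted p = 0.896, edgeR), and its 95% interval ran from −0.21 to 0.14. Atp5a1, the alpha subunit of the head, had 907, 959.8 and 922 CPM in Piezo1_KO, against 879, 835 and 971 CPM in WT (0.05 ± 0.09). Per kilobase of transcript, Atp5b stood at 1056 ± 43.1 CPM in Piezo1_KO and 1082 ± 34.4 CPM in WT (SD, n = 3 each), above every other nuclear gene of the 45.

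Of the other head and stalk subunits, Atp5c1 (gamma) and Atp5d (delta) of the central stalk differed by 0.10 ± 0.13 and −0.14 ± 0.11, and Atp5e (epsilon) by 0.30 ± 0.31. Of the peripheral stalk, which holds the head still, Atp5pb (subunit b) had 378, 435 and 445 CPM in Piezo1_KO, against 364, 364 and 380.5 CPM in WT. Piezo1_KO 1 lay just under WT 3 and the others above it (0.18 ± 0.09, adjusted p = 0.463, edgeR). Atp5h, Atp5j and Atp5o, the subunits d, F6 and OSCP of that stalk, differed by 0.16, 0.27 and 0.00.

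The small membrane subunits of complex V, several of which hold ATP synthase dimers together, had log2 fold changes of 0.32 to 0.87. Atp5md, also known as DAPIT (chr19:47083464-47090647), had 127, 218 and 210.0 CPM in Piezo1_KO, against 108, 55.0 and 142 CPM in WT. Piezo1_KO 2 and Piezo1_KO 3 stood above all WT libraries, while Piezo1_KO 1 lay under WT 3 (0.87 ± 0.33, adjusted p = 0.309, edgeR). Atp5l, subunit g, had 125, 189 and 184 CPM in Piezo1_KO, against 113, 85.5 and 141 CPM in WT, in the same order of libraries (0.56 ± 0.21, adjusted p = 0.300, edgeR). Atp5k, Atp5mpl and Atp5j2 had log2 fold changes of 0.32 to 0.67. Without WT 2, Atp5md had 0.55 and Atp5l 0.37.

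The c ring, the rotor in the membrane, is built from one mature protein that 3 genes encode with different import sequences. Whether reads of one were counted for another was not tested. The last 75 codons and the stop codon of each, from the GENCODE M21 transcripts in coding direction, are shown because they encode the stretch that the 3 proteins share, with capitals at the 58 of 228 positions where they are not all alike.
Atp5g1: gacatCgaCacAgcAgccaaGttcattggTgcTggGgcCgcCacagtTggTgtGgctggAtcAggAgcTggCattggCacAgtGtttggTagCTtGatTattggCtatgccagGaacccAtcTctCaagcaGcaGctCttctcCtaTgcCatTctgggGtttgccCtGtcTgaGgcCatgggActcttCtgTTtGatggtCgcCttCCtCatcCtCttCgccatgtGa
Atp5g2: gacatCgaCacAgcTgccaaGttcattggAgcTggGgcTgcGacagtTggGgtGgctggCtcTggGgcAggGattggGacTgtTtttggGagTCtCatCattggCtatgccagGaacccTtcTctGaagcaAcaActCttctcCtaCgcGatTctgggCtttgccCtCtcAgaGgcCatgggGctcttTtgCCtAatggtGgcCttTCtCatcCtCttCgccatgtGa
Atp5g3: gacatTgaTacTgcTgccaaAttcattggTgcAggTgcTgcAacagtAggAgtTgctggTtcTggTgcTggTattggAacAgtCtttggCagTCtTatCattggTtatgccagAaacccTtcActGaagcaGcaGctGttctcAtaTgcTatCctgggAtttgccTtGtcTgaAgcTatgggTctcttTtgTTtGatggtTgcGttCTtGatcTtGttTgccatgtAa
Over these 228 bases Atp5g1 and Atp5g2 were 85.1% identical with a longest shared run of 21 bases, Atp5g1 and Atp5g3 79.8% with 11, and Atp5g2 and Atp5g3 78.5% with 8.

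Atp5g3 had 428, 526 and 516 CPM in Piezo1_KO, against 421, 369 and 506 CPM in WT (log2 fold change 0.18 ± 0.14). Atp5g1 had 190.2, 225 and 189.7 CPM in Piezo1_KO, against 202, 172 and 262 CPM in WT (−0.07 ± 0.16), and Atp5g2 differed by 0.12 ± 0.20. Each gene overlapped between the groups. As a share of the 3 genes' CPM, not corrected for length, Atp5g1 held 26.1%, 25.5% and 23.2% in Piezo1_KO, against 27.4%, 27.9% and 28.9% in WT. These shares did not overlap and averaged 25.0% ± 1.56 in Piezo1_KO and 28.1% ± 0.772 in WT (SD, n = 3 each), while Atp5g3 averaged 60.6% ± 2.25 in Piezo1_KO and 57.7% ± 2.13 in WT and overlapped.

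The 6 genes of the mitochondrial genome all had positive log2 fold changes, with a median of 0.27. Their summed level was 3743, 4162 and 4660.0 CPM in Piezo1_KO, against 3613, 3579.9 and 3001 CPM in WT, with no overlap. All 6 were highest in Piezo1_KO 3, and 5 of the 6 were lowest in WT 3, the shallowest library. These genes are cut from the same long transcripts, so they are not independent of each other. None passed the adjusted threshold (edgeR), and 3 had an unadjusted p under 0.05, all higher in Piezo1_KO, where 6.30% of all tested genes did.

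mt-Co3, a core subunit of complex IV (chrM:8607-9390), had 891, 1189.9 and 1307 CPM in Piezo1_KO, against 874, 876 and 775 CPM in WT. All Piezo1_KO libraries were above all WT libraries, Piezo1_KO 1 by a small margin, and the log2 fold change was 0.42 ± 0.14 (SE, adjusted p = 0.240, edgeR). mt-Cytb, the cytochrome b of complex III, had 769, 783 and 864 CPM in Piezo1_KO, against 749.5, 647 and 598 CPM in WT (0.28 ± 0.11, adjusted p = 0.311, edgeR). mt-Co2, which takes electrons from cytochrome c, had 387, 372 and 403 CPM in Piezo1_KO, against 368, 304 and 297 CPM in WT (0.26 ± 0.11, adjusted p = 0.338, edgeR). Neither gene overlapped between the groups. mt-Atp6, the proton channel subunit a of ATP synthase, had 646, 638 and 791 CPM in Piezo1_KO, against 611, 631 and 482 CPM in WT, also without overlap (0.27 ± 0.13, adjusted p = 0.451, edgeR). With Cox7a1, these 4 made 5 of 57 genes that lay higher in Piezo1_KO without overlap, where 10.1% of all tested genes did.

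mt-Co1, the catalytic subunit that binds oxygen, overlapped: it had 999.6, 1134 and 1239.7 CPM in Piezo1_KO, against 959.5, 1109.8 and 800.2 CPM in WT (0.23 ± 0.13, adjusted p = 0.524, edgeR). mt-Atp8, a short membrane subunit of ATP synthase, had 50.3, 46.1 and 56.3 CPM in Piezo1_KO, against 50.4, 12.8 and 48.5 CPM in WT. One library, WT 2, stood apart, and the log2 fold change was 0.46 ± 0.43 (adjusted p = 0.710, edgeR), and 0.02 without WT 2. The gene overlaps mt-Atp6, so how the authors' counting split their shared reads bears on both. Its sequence in GRCm38, at chrM:7766-7969 on the + strand, is given with the 43 bases it shares with mt-Atp6 in capitals, which are 21.1% of its 204 bases.
mt-Atp8: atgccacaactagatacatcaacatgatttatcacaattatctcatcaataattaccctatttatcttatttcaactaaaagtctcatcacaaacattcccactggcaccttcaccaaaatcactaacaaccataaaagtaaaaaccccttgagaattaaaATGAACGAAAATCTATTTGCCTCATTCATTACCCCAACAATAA

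**Figure D3:**
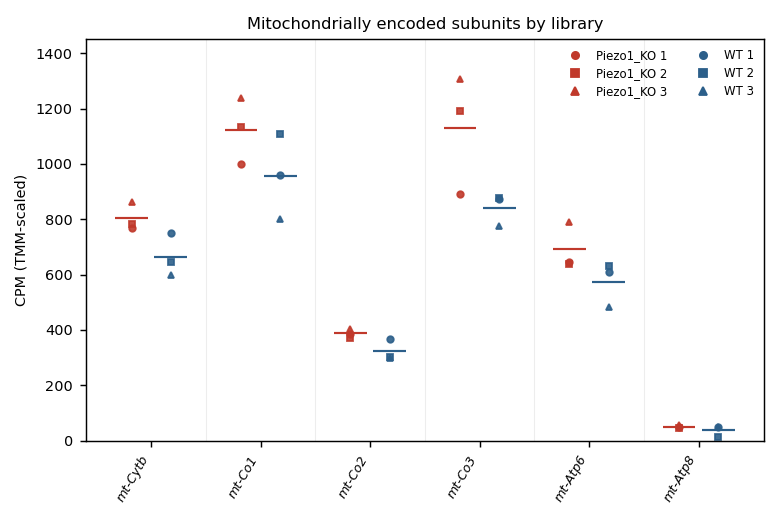
TMM-scaled CPM of the 6 mitochondrially encoded genes in every library. Red symbols left are Piezo1_KO, blue symbols right are WT, shapes mark the replicate number and lines the group means. The groups do not overlap for mt-Cytb, mt-Co2, mt-Co3 and mt-Atp6, and WT 2 (blue square) is apart for mt-Atp8.

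Set per kilobase of transcript, mt-Co3 and mt-Atp6 were among the highest of the chain. mt-Co3 stood at 1440.4 ± 273 CPM in Piezo1_KO and 1073 ± 73.4 CPM in WT, and mt-Atp6 at 1016 ± 126 CPM in Piezo1_KO and 844 ± 118 CPM in WT (SD, n = 3 each). The mitochondrial to nuclear ratio of summed CPM was 0.339, 0.308 and 0.367 in Piezo1_KO, against 0.325, 0.355 and 0.227 in WT. WT 3 had the lowest ratio and the other 5 libraries overlapped. The difference was 0.18 on the log2 scale, and −0.01 without WT 3.

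Log2 fold changes were larger in the shorter nuclear genes. The median transcript length of the 45 was 680 bases, against 2847 bases for the 7525 other genes of at least moderate expression, here a mean log2 CPM of 4 or more. For the 18 nuclear genes under 600 bases the median log2 fold change was 0.38, with 17 above 0, and for the 110 other genes under 600 bases it was 0.37, with 105 above 0. Without WT 2 these medians were 0.16 for the subunit genes and 0.13 for the other genes. From 600 to under 1000 bases the medians were 0.21 for 12 subunit genes and 0.14 for 426 other genes, and without WT 2 they were 0.06 for the subunit genes and 0.00 for the other genes. From 1000 to under 2000 bases they were 0.04 for 11 subunit genes and 0.00 for 1724 other genes, and for the 4 subunit genes of 2000 bases or more −0.02, as for the other genes. Across the 45 nuclear genes, which share the 6 libraries, the Spearman correlation of fold change with length was −0.69, and −0.33 when length was the union of all exons. It was −0.55 without WT 2. Across the 7525 other genes it was −0.09, and 0.13 without WT 2.

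**Figure D4:**
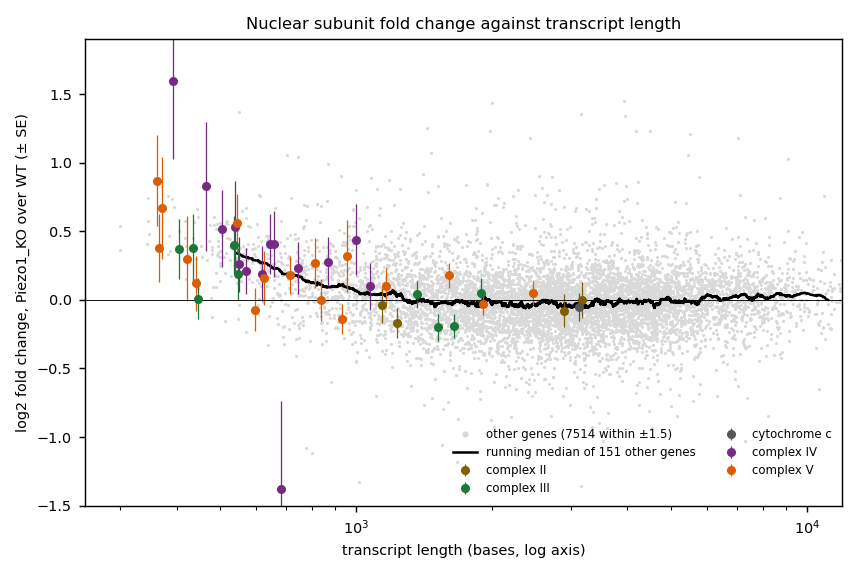
Log2 fold change of Piezo1_KO over WT (vertical axis, bars ± SE) against transcript length (log axis) for the 45 nuclear subunit genes, coloured by complex. Grey dots are other genes and the black line is their running median. The bars of Cox7a1 and Cox6a2 run past the axis limits. Most subunit genes under 600 bases lie near the raised left end of the line, and most of 1000 bases or more lie near 0.

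By library, the short genes of the respiratory chain moved as the other short genes of the table did. For the 18 subunit genes under 600 bases, the median log2 deviation from the mean of the 6 libraries was −0.06, 0.43 and 0.34 in Piezo1_KO, against −0.17, −0.70 and 0.27 in WT. The 110 other genes under 600 bases had −0.07, 0.40 and 0.31 in Piezo1_KO, against −0.15, −0.70 and 0.26 in WT. Ribosomal protein genes, and respiratory genes outside the 59 such as Cox17, were not removed from the other genes. In both sets WT 2 was far below and WT 3 stood with Piezo1_KO 2 and Piezo1_KO 3. The 81 cytoplasmic ribosomal protein genes took 2.54%, 3.35% and 3.10% of the counts in Piezo1_KO, against 2.49%, 1.87% and 3.21% in WT, in nearly the same order of libraries. In that fit with the length trend taken out, an alternative added after the data had been seen, the median of the nuclear genes was 0.00 and that of the mitochondrially encoded genes 0.17. The trend was fitted in each library without regard to group, so any group difference that short genes share is taken out with it. That fit called 3.51% of all tested genes and 1 of the 57, Atp5md (log2 fold change 0.48, adjusted p = 0.0458, edgeR with the length trend as offset).

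**Figure D5:**
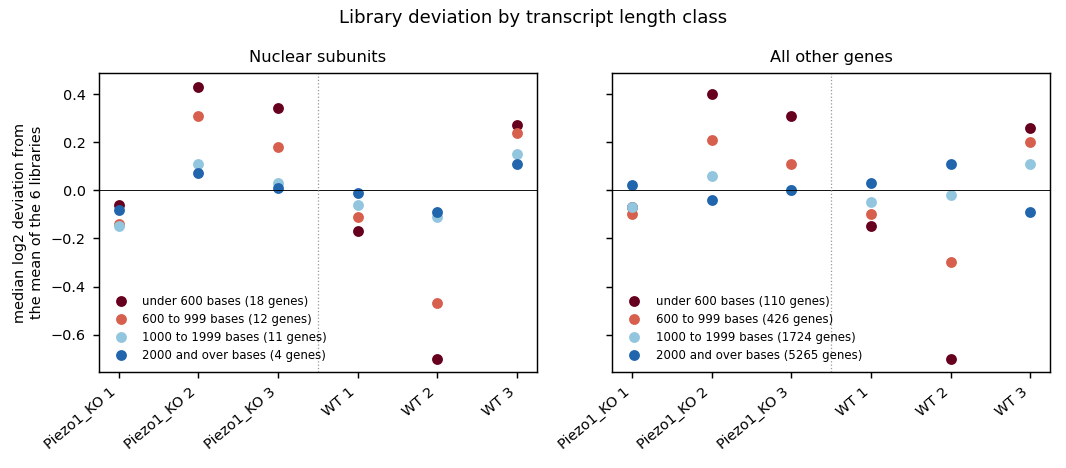
Median log2 deviation of each library from the mean of the 6 libraries (vertical axis), for nuclear subunit genes (left) and other genes (right) in 4 classes of transcript length. The Piezo1_KO libraries are left of the dotted line and the WT libraries right of it. Under 600 bases, WT 2 is at −0.70 in both panels and Piezo1_KO 2, Piezo1_KO 3 and WT 3 are above 0.

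The 8 pseudogene entries, near copies of subunit genes, summed to 15.2, 20.6 and 22.1 CPM in Piezo1_KO, against 15.0, 4.54 and 22.1 CPM in WT. Atp5k-ps2 and Uqcrh-ps1 did not pass the low-count filter. The other 6 had log2 fold changes of −0.24 to 0.90 and 0 were called by edgeR, against 1.51% of all tested genes. At an unadjusted p under 0.05 there were also 0, against 13.2% of all tested genes. WT 2 was the lowest library for all 6 tested entries. Reads of a processed pseudogene and its parent are hard to tell apart, and these values are uncertain.

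Nuclear respiratory genes are known targets of NRF1 and of the ETS factor GABP. RefSeq promoters on GRCm38.p6, from 250 bases before to 50 after each start, were available for 35 of the genes and 27025 symbols in all. The NRF1 core (GCGCA, any base, then GCGC), on either strand, occurred in 10 of 35 (28.6%), against 5.19% of all symbols, and the ETS core CCGGAAG, on either strand, in 13 of 35 (37.1%), against 9.93%. Both were found in 4 genes. The symbols outnumber the 18057 genes of the table, and the shares among expressed genes alone were not computed. A match is a description of the letters and not a site. For each complex, cores were counted in the gene that had an NRF1 core and the highest mean CPM. Of these genes, the promoters of Sdha (chr13:74350191-74350490, − strand), with 3 NRF1 cores, and Cox6a1 (chr5:115348909-115349208, − strand), with both kinds, are shown with the cores in capitals.
Sdha: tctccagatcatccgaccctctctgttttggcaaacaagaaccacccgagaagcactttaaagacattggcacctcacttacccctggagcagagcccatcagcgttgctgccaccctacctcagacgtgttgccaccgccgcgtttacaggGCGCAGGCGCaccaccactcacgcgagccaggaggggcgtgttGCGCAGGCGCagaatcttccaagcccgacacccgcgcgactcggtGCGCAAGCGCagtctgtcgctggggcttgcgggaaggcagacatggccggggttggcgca
Cox6a1: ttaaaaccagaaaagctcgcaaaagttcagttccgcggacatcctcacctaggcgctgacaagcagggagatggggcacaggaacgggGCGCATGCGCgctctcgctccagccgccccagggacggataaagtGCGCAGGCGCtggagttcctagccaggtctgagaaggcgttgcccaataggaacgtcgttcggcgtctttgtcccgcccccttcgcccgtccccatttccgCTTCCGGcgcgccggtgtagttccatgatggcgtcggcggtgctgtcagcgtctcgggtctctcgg
Sdha had a log2 fold change of −0.08 and Cox6a1 one of 0.21, and neither passed the test.

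The factors themselves were measured. Nrf1 averaged 106 ± 2.50 CPM in Piezo1_KO and 116 ± 16.0 CPM in WT, and Gabpa 79.2 ± 8.66 CPM in Piezo1_KO and 83.4 ± 16.3 CPM in WT (SD, n = 3 each), with log2 fold changes of −0.12 ± 0.11 and −0.08 ± 0.16. Of the list on mitochondrial transcription and biogenesis, 19 of 21 genes were tested and 0 were called in either direction by edgeR. The median was −0.08, with 6 above 0, against 53.0% of all tested genes. At an unadjusted p under 0.05, where edgeR had 6.30% of all tested genes higher and 6.91% lower, the list had 0 higher and 1 lower. That gene was Polg, the polymerase that copies the mitochondrial genome, with 124, 104 and 114 CPM in Piezo1_KO, against 149.7, 182 and 134 CPM in WT. The groups did not overlap (−0.45 ± 0.13, adjusted p = 0.174, edgeR), and DESeq2 called it (adjusted p = 0.0486). Tfam, which packs and helps transcribe that genome, differed by −0.07 ± 0.10.

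Assembly factors build these complexes without staying in them. Of 40 listed, 39 were tested and 25 lay above 0, against 53.0% of all tested genes, with a median of 0.08. Of these, 0 were called by edgeR, and 3 were higher and 1 lower at an unadjusted p under 0.05, against 6.30% and 6.91% of all tested genes. Sco2, which delivers copper to complex IV, had the smallest p, at 3.20 ± 0.790 CPM in Piezo1_KO and 5.69 ± 1.15 CPM in WT (SD, n = 3 each). All Piezo1_KO libraries were below all WT libraries (−0.83 ± 0.28, adjusted p = 0.241, edgeR).

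The list of isoform switch and supercomplex factors had 8 of 12 genes tested, with 6 above 0, against 53.0% of all tested genes, and a median of 0.17. Of these 8 genes, 0 were called by edgeR. At an unadjusted p under 0.05 (edgeR), 2 were higher and 0 lower, against 6.30% and 6.91% of all tested genes. Higd1a, a hypoxia-induced protein that binds complex IV, had 168, 250.1 and 220.4 CPM in Piezo1_KO, against 131, 100.1 and 148 CPM in WT (0.76 ± 0.18, adjusted p = 0.111, edgeR). Ndufa4, first assigned to complex I and now to complex IV, had 162, 211 and 207 CPM in Piezo1_KO, against 111, 84.0 and 148 CPM in WT (0.76 ± 0.20, adjusted p = 0.139, edgeR). Neither overlapped between the groups. Both passed in DESeq2 (adjusted p = 0.00401 for Higd1a and 0.00950 for Ndufa4) and in limma-voom (0.0341 and 0.0193). With the length trend taken out they also passed, at log2 fold changes of 0.78 for Higd1a and 0.50 for Ndufa4 (adjusted p = 0.0449 and 0.00509, edgeR). Ndufa4 was named after its values were seen.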

How the data were processed

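The values analysed are the authors' estimated counts, 1 per gene and library and unscaled, with 37.9% to 47.4% of them not whole (tolerance 1e-09). Per the submitters' processing notes, the genome was mm10. Not given in the sources used here are the aligner, counter, annotation and strandedness, so overlapping and antisense genes may share reads. Per the labels' protocols, libraries were made from 10 ng of RNA, and series notes name a NextSeq 500. Groups follow the genotype labels, with 3 libraries each.

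Estimated counts were rounded. Genes were kept by filterByExpr (14149 of 18057), scaled by TMM and tested two-sided with glmQLFTest in edgeR 4.0.16 (R 4.3.3) with no covariates and Benjamini-Hochberg adjustment over all tested genes (threshold 0.05, biological coefficient of variation 0.201). The SE is the size of the log2 fold change over the square root of F. CPM was computed here. Medians and sums over genes carry no test. Positions and transcript lengths come from GENCODE M21 (17831 genes matched), taking the shortest of the best-supported transcripts. This choice matters for Atp5g1 (596 or 4715 bases) and Uqcrq (405 or 1521).

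The genes and lists were chosen with earlier results of these data known. The text names all mitochondrially encoded genes, the Sdh genes, Cyc1, Cycs, the isoform families, in complexes III to V the 4 nuclear genes with the highest mean CPM and the 2 with the smallest p, and from each other list genes past the threshold or the one with the smallest p. Other genes are named where a role or a count called for it, after their values were seen.

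In all, 15 alternative fits were run: RLE scaling, total counts, TMM without mitochondrial genes, no filter, a filter of 1 CPM in all libraries of a group, DESeq2 1.42.0, limma-voom (limma 3.58.1) with quality weights, the replicate number as a block, each library left out, and the length-trend offset, added once the data had been seen. The scripts were tested on simulated data. No replicate pair agreed within sampling noise.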

Additional observations from a re-analysis of the deposited data

How the results depend on the processing

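The main fit called 0 of the 57 genes, 0 of the assembly, biogenesis and supercomplex lists and not Piezo1, so no such call could change sign. Medians, which carry no test, did change sign: that of complex V was 0.18 in the main fit and −0.01 without WT 2. Across the 15 alternatives, the count of the 57 genes called higher was 0 in each except the length-trend offset, where it was 1. The count called lower was 0 in all. Of the 3 lists on assembly, biogenesis and supercomplexes, 39, 19 and 8 genes were tested. DESeq2 called 3 of these genes, the length-trend offset 3 and limma-voom 2. The same fits called 4.22%, 3.51% and 3.10% of all the genes they tested. Leaving out each library gave 0 to 1 from the lists (Ndufa4 without WT 3, log2 fold change 0.99, adjusted p = 0.0339, edgeR). Piezo1 passed the threshold in DESeq2 (−0.85, adjusted p = 0.00193), with the length-trend offset (−0.86, adjusted p = 0.00544, edgeR) and in limma-voom (−0.93, adjusted p = 0.0157), and ranged from −1.05 (without WT 3, adjusted p = 0.0163, edgeR) to −0.70 when each library was left out. The cause of these shifts was not tested. Leaving out each library, the median ranged from 0.03 to 0.40 for nuclear genes, 0.20 to 0.37 for mitochondrially encoded genes, −0.11 to −0.01 for complex II, −0.01 to 0.12 for complex III, 0.14 to 0.56 for complex IV and −0.01 to 0.32 for complex V. With the length-trend offset, the medians were −0.08, −0.06, 0.15 and −0.02 for complexes II to V. The number of all genes called was 214, and leaving out each library gave 33 (without Piezo1_KO 2) to 297 (without WT 2), while DESeq2 called 584, the length-trend offset 496 and limma-voom 439. Same-numbered libraries did not deviate together (correlations −0.023, −0.183 and −0.008). Differently numbered libraries were not compared, so this does not settle whether the numbers pair them. With the replicate block, 52 genes were called in all and 0 of the 57, and the medians were 0.20 (nuclear), 0.27 (mitochondrially encoded), −0.05, 0.05, 0.36 and 0.18 (complexes II to V).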
